A study of Homo sapiens with 7 samples.

Results

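The 10 classic targets of the let-7 microRNA family followed here after depletion of IGF2BP1 were LIN28B, TRIM71, HMGA2, HMGA1, ARID3A, ARID3B, NR6A1, PLAGL2, CDC34 and FIGN. They were chosen by symbol, as genes long described as let-7 targets in embryonic and tumor cells, and are 10 of the 58174 genes in the deposited table. Total RNA was sequenced from Huh-7, a line established from a hepatocellular carcinoma. Cells had received control siRNA (siC, 3 libraries) or siRNA against IGF2BP1, named Imp1 in the titles (siIGF2BP1, 4 libraries), and RNA was taken at 72 h. According to the methods the IGF2BP1 siRNAs were a pool, and all libraries come from 1 cell line. Nothing in the labels says that libraries of a group are separate cultures, so p-values measure the spread between these libraries, which may be technical.

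The let-7 microRNAs guide Argonaute proteins to mRNAs that pair with their seed, and the bound mRNAs are repressed and degraded. The family is scarce in the embryo and rises with differentiation, when its targets are switched off. LIN28 proteins hold let-7 down by blocking the maturation of its precursors, and are let-7 targets themselves. IGF2BP1 is an oncofetal RNA-binding protein that is known to shield bound mRNAs from decay, and its own mRNA is a let-7 target. The comparison asks how the levels of these mRNAs stand when IGF2BP1 is depleted.

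The mature sequences show what the targets have in common. RefSeq (GRCh38.p14) gives 9 mature forms from 12 loci, each of 22 bases and all with the seed GAGGUAG, printed in capitals at bases 2 to 8. The forms below differ from each other only outside the seed.

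hsa-let-7a-5p: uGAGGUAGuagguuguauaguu

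hsa-let-7b-5p: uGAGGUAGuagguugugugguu

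hsa-let-7d-5p: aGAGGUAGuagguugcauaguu

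hsa-let-7g-5p: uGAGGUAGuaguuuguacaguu

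hsa-miR-98-5p: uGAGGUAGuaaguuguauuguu

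The mRNA letters that pair with this seed are CTACCTC, and an A after them (CTACCTCA) marks the longer form of match. The 3'UTR of the canonical transcript (GENCODE release 44, GRCh38) was searched on the sense strand only, and the CTACCTC count includes the CTACCTCA matches. The 10 mRNAs hold 28 matches, 14 of them followed by A. Each of the 10 holds at least 1, and 7 hold at least 1 followed by A. Of the 10617 tested genes with a 3'UTR, 11.2% hold a match, and 4.48% hold one followed by A. Among the 7583 of these with a 3'UTR from 535 to 6941 bases, the range of the targets, the share with a match is 12.8%. The median 3'UTR of that set is 1838 bases, against 3911 for the targets. Among the 3864 genes with a 3'UTR of at least 2000 bases, 21.1% hold a match and 8.59% one followed by A. The targets were chosen as known let-7 targets, so a match in each is not a result of these data. A match is a description of the letters, and pairing was not measured.

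One match per gene is printed, the first followed by A where there is one, to show the letters that face the seed in each mRNA. Capitals mark the match, and each sequence is read 5′ to 3′ on the strand of the mRNA.

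LIN28B, chr6:105078813-105078838, plus strand: cccggttgcaaagtCTACCTCAtgca

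TRIM71, chr3:32891969-32891994, plus strand: acattgcttaagtcCTACCTCAtctt

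HMGA2, chr12:65963299-65963324, plus strand: ccaacgttcgatttCTACCTCAgcag

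HMGA1, chr6:34245830-34245854, plus strand: cctctgttcacaaaCTACCTCtgga

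ARID3A, chr19:974512-974537, plus strand: ctgcctatctctgtCTACCTCAggtc

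ARID3B, chr15:74598102-74598126, plus strand: atttcaataaacctCTACCTCttca

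NR6A1, chr9:124522306-124522331, minus strand: gttgacaaagatgaCTACCTCAatgg

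PLAGL2, chr20:32194816-32194840, minus strand: tcagaaacacacttCTACCTCttta

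CDC34, chr19:541606-541631, plus strand: ccttagacgacagaCTACCTCAcgga

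FIGN, chr2:163608139-163608164, minus strand: ctcctgctttatttCTACCTCAgttt

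All of these lie in the 3'UTR, each within 1 exon. The numbers per 3'UTR are uneven. TRIM71 holds 6 matches (4 followed by A), NR6A1 5 (2), LIN28B 4 (2), HMGA2 4 (1), FIGN 3 (3) and ARID3A 2 (1). HMGA1, ARID3B and PLAGL2 hold 1 match without the A, and CDC34 holds 1 with it. HMGA2 and LIN28B carry a match 21 and 44 bases after the stop codon, whereas the single match of ARID3B starts at base 2342 of a 3'UTR of 2357 bases.

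**Figure D1:**
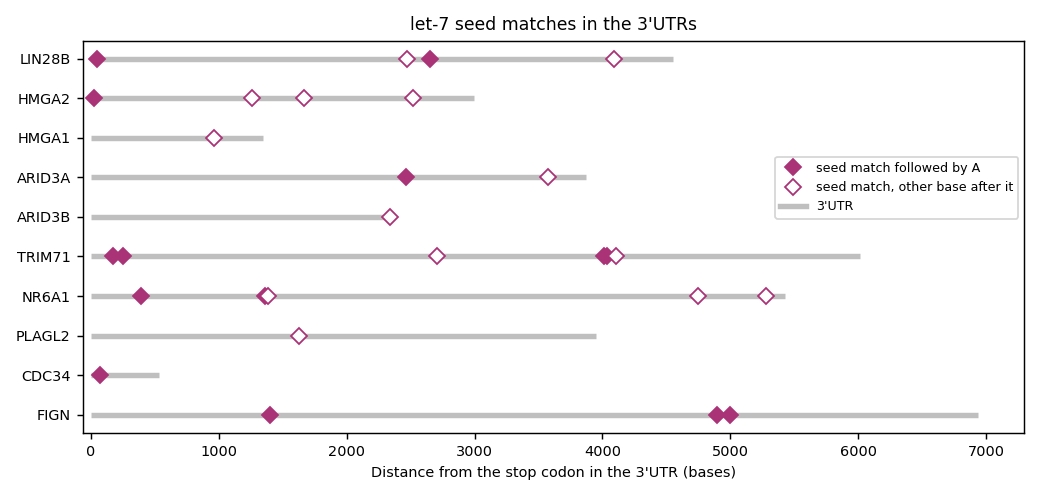
Matches to the let-7 seed in the 3'UTR of each target, by distance from the stop codon in bases, with the line as long as the 3'UTR. TRIM71 holds 6 matches and CDC34, with the shortest 3'UTR (535 bases), holds 1.

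Depth ran from 12826550 to 33212205 reads on genes over the 7 libraries, and levels are given as FPKM, which divides reads by gene length and library size. All 10 targets passed the filter of a mean of at least 1 FPKM, as did 14839 genes in all, and the lowest read number on any of them in a library was 542 (FIGN). One library stood apart: siC replicate 3 was at -69.5 on the first principal component (34.5% of the variance), the others between -4.52 and 27.5. Values are therefore given with and without this library. The 8 hepatocyte markers were all measured, with a summed level of 5663 to 6941 FPKM in siC and 6115 to 6284 FPKM in siIGF2BP1. In limma 0 of them were called, and the log2 change was negative for 4 and positive for 4. At an unadjusted p under 0.05, 3 were lower (log2 change of APOB -0.32, TTR -0.49 and FGB -0.30) and 0 were higher. Over all genes tested, 14.8% were lower and 11% higher at that level. The siIGF2BP1 values lay above every siC value for ALB (0.14) and APOA1 (0.44, or 0.13 without siC replicate 3), and below every siC value for APOB. Over all genes tested, 11.9% lay above and 15.1% below in this way. TTR and FGB were called lower without siC replicate 3 (-0.71 and -0.44), where 6.67% of all genes were. The 7 markers of fibroblasts, endothelium and leukocytes summed to 3.90 to 5.31 FPKM in siC and 6.20 to 7.20 FPKM in siIGF2BP1. Of these, only PECAM1 and CD14 reached the filter, and PTPRC, the pan-leukocyte marker, had at most 2 reads. The part of these markers in the results was not tested.

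IGF2BP1 checks the labels. It was at 81.9, 80.4 and 84.4 FPKM in siC and at 15.6, 15.7, 16.6 and 15.3 FPKM in siIGF2BP1, a log2 change of -2.37 (95% interval -2.50 to -2.24, limma adjusted p = 1.16e-05). Its own 3'UTR holds 4 matches to the let-7 seed, 3 of them followed by A.

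None of the 10 targets passed the threshold of an adjusted p of 0.01 in limma, lower or higher, where 2.28% of all genes tested were called lower and 1.65% higher (3.93% in either direction). At an unadjusted p under 0.05, 4 (HMGA2, ARID3A, ARID3B and TRIM71) were lower and 0 were higher, against 14.8% and 11% of all genes. The same 4 had siIGF2BP1 values that lay below every siC value, which holds for 15.1% of all genes, and the groups of the other 6 overlapped. With voom on the reads recovered from the FPKM values, 0 targets passed as well. The mean was lower in siIGF2BP1 for 9 of the 10, against 52.9% of all genes, and the median log2 change was -0.22, against -0.017 over all genes. Without siC replicate 3 the median was -0.083 against -0.031, ARID3A and ARID3B were called lower (6.67% of all genes were), and 0 were called higher (3.59% of all genes). In bulk RNA, fewer cells of a kind and less RNA per cell cannot be told apart.

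**Figure D2:**
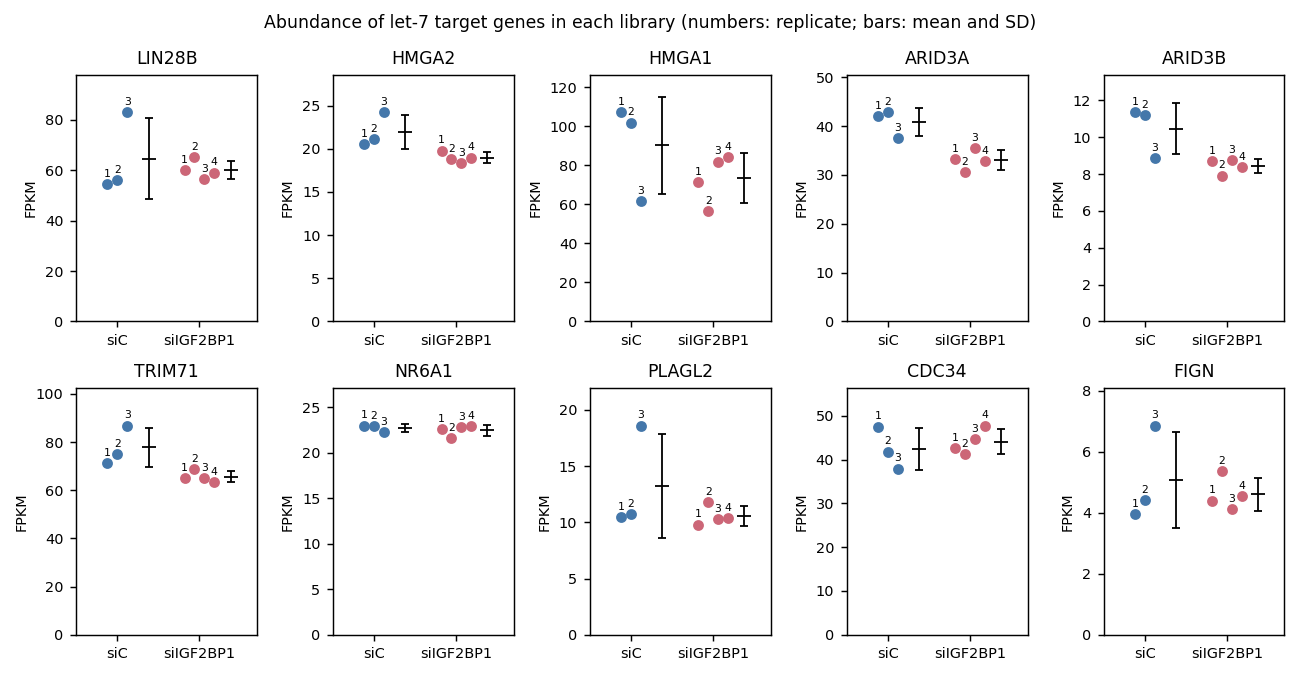
FPKM of the 10 let-7 targets in each siC (3) and siIGF2BP1 (4) library, 1 panel per gene, with the mean of each group. The groups are apart for HMGA2, ARID3A, ARID3B and TRIM71 and overlap for the other 6, and siC replicate 3 lies above all 6 other libraries for 5 genes.

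LIN28B (ENSG00000187772, chr6:104936616-105083332, plus strand) codes for the RNA-binding protein that blocks let-7 maturation. It was at 54.4, 56.1 and 83.1 FPKM in siC replicates 1 to 3 and at 60.1, 65.2, 56.5 and 59.1 FPKM in siIGF2BP1 replicates 1 to 4. All siIGF2BP1 values lay between the lowest and the highest siC value, and the high one was siC replicate 3. The means were 64.5 ± 16.1 FPKM (SD, n = 3) and 60.2 ± 3.63 FPKM (SD, n = 4). The log2 change was -0.07 (95% interval -0.43 to 0.28, limma adjusted p = 0.815). Without siC replicate 3 its sign turned, to 0.12 (-0.03 to 0.27, limma adjusted p = 0.198). The paralogue LIN28A, which acts on the same precursors, had 0 to 5 reads per library, so LIN28B carried nearly all LIN28 reads. The exons of LIN28B overlap those of LIN28B-AS1 on the other strand, which had 0 to 6 reads.

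TRIM71 (ENSG00000206557, chr3:32817997-32897824, plus strand), the LIN-41 homologue, is an RNA-binding ubiquitin ligase of stem cells. It was at 71.3, 75.1 and 86.9 FPKM in siC and at 65.2, 68.8, 65.1 and 63.4 FPKM in siIGF2BP1. All 4 siIGF2BP1 values lay below the lowest siC value. The means were 77.8 ± 8.13 FPKM (SD, n = 3) and 65.6 ± 2.25 FPKM (SD, n = 4), 84.4% of siC, and the threshold was not passed (log2 change -0.24, 95% interval -0.43 to -0.05, limma adjusted p = 0.112). Without siC replicate 3, the highest library, it was -0.16 (-0.27 to -0.05, limma adjusted p = 0.0508).

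HMGA2 (ENSG00000149948, chr12:65824460-65966291, plus strand) and HMGA1 (ENSG00000137309, chr6:34236873-34246231, plus strand) are AT-hook proteins that bend DNA and open chromatin. HMGA2 was at 20.5, 21.2 and 24.2 FPKM in siC and at 19.8, 18.8, 18.4 and 19.0 FPKM in siIGF2BP1. The groups did not overlap, with siC replicate 3 highest. Its log2 change was -0.21 (95% interval -0.38 to -0.03, limma adjusted p = 0.13), or -0.13 (-0.24 to -0.03) without that library. The deposited length of HMGA2 is 15403 bases, while the canonical transcript has 4117, so its FPKM is set by a gene model far longer than that transcript. HMGA2 overlaps HMGA2-AS1 on the other strand.

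HMGA1 behaved differently between libraries. It was at 107, 102 and 61.8 FPKM in siC and at 71.5, 56.4, 81.9 and 84.3 FPKM in siIGF2BP1. Here siC replicate 3 was the low one, below 3 of the 4 siIGF2BP1 libraries, and the groups overlapped. The log2 change was -0.27 with a 95% interval of -0.81 to 0.26 (limma adjusted p = 0.516), the widest of the 10. Without siC replicate 3 it was -0.53 (-0.92 to -0.13, limma adjusted p = 0.0605), so its value moved by over 1.5 times with 1 library. The HMGA1 pseudogenes in the table (HMGA1P1 to HMGA1P8) had 0 to 11 reads per library, and reads shared with such near-identical copies could have been split.

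By deposited FPKM, the ratio of HMGA1 to HMGA2 ran from 2.55 (siC replicate 3) to 5.23 (siC replicate 1). This order rests on the gene lengths. With the canonical transcript lengths, an alternative chosen after seeing the data, the ratio ran from 0.826 to 1.7, above 1 in 5 libraries and below it in siC replicate 3 and siIGF2BP1 replicate 2. HMGA2 had more reads than HMGA1 in all 7 libraries. The ratio of ARID3A to ARID3B was much steadier, from 3.70 to 4.24 over the 7 libraries.

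ARID3A and ARID3B code for related AT-rich-interaction-domain factors. ARID3A (ENSG00000116017, chr19:925781-975939, plus strand) was at 42.1, 42.9 and 37.5 FPKM in siC and at 33.2, 30.6, 35.5 and 32.9 FPKM in siIGF2BP1. The highest siIGF2BP1 value lay under the lowest siC value. The means were 40.8 ± 2.87 FPKM (SD, n = 3) and 33.0 ± 2.0 FPKM (SD, n = 4), 80.9% of siC. The log2 change was -0.30 (95% interval -0.48 to -0.12, limma adjusted p = 0.0473), and without siC replicate 3 it was -0.36 (limma adjusted p = 0.00916), past the threshold. ARID3A overlaps a long noncoding RNA gene on the other strand.

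ARID3B (ENSG00000179361, chr15:74541206-74598131, plus strand) was at 11.4, 11.2 and 8.85 FPKM in siC and at 8.71, 7.91, 8.76 and 8.40 FPKM in siIGF2BP1. The groups did not overlap, by a small margin between siC replicate 3 and the highest siIGF2BP1 library. The log2 change was -0.30 (95% interval -0.54 to -0.06, limma adjusted p = 0.111). Without siC replicate 3 it was -0.42 (-0.55 to -0.28, limma adjusted p = 0.00461), past the threshold.

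NR6A1 (ENSG00000148200, chr9:124517275-124771311, minus strand), an orphan nuclear receptor that represses pluripotency genes, was the steadiest of the 10. It was at 23.0, 23.0 and 22.3 FPKM in siC and at 22.6, 21.6, 22.8 and 22.9 FPKM in siIGF2BP1. The groups overlapped, and the mean was 98.8% of siC. The log2 change was -0.02, and its 95% interval of -0.14 to 0.11 (limma adjusted p = 0.884) does not reach the estimates for ARID3A and ARID3B. NR6A1 comes next to TRIM71 in the number of seed matches, and the number of matches did not order the changes: TRIM71 with 6 was at -0.24, NR6A1 with 5 at -0.02 and ARID3B with 1 at -0.30.

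PLAGL2 (ENSG00000126003, chr20:32192504-32207743, minus strand), a zinc finger transcription factor, was at 10.4, 10.8 and 18.6 FPKM in siC and at 9.79, 11.8, 10.3 and 10.3 FPKM in siIGF2BP1. A single library, siC replicate 3, set its mean apart. The log2 change was -0.28 (95% interval -0.76 to 0.20, limma adjusted p = 0.452), and without it -0.01 (-0.20 to 0.18, limma adjusted p = 0.946).

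CDC34 (ENSG00000099804, chr19:531760-542092, plus strand) codes for a ubiquitin-conjugating enzyme that works with SCF ligases in the cell cycle. It was at 47.5, 41.8 and 38.0 FPKM in siC and at 42.7, 41.4, 44.7 and 47.8 FPKM in siIGF2BP1, the only target with a higher mean in siIGF2BP1. The groups overlapped, with a log2 change of 0.06 (95% interval -0.16 to 0.28, limma adjusted p = 0.745), or -0.02 without siC replicate 3.

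FIGN (ENSG00000182263, chr2:163593396-163736012, minus strand), a microtubule-severing ATPase, was the lowest of the 10. It was at 3.95, 4.4 and 6.85 FPKM in siC and at 4.4, 5.37, 4.11 and 4.54 FPKM in siIGF2BP1. The groups overlapped, and the log2 change of -0.10 (95% interval -0.56 to 0.35, limma adjusted p = 0.797) turned to 0.13 (-0.15 to 0.41) without siC replicate 3.

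**Figure D3:**
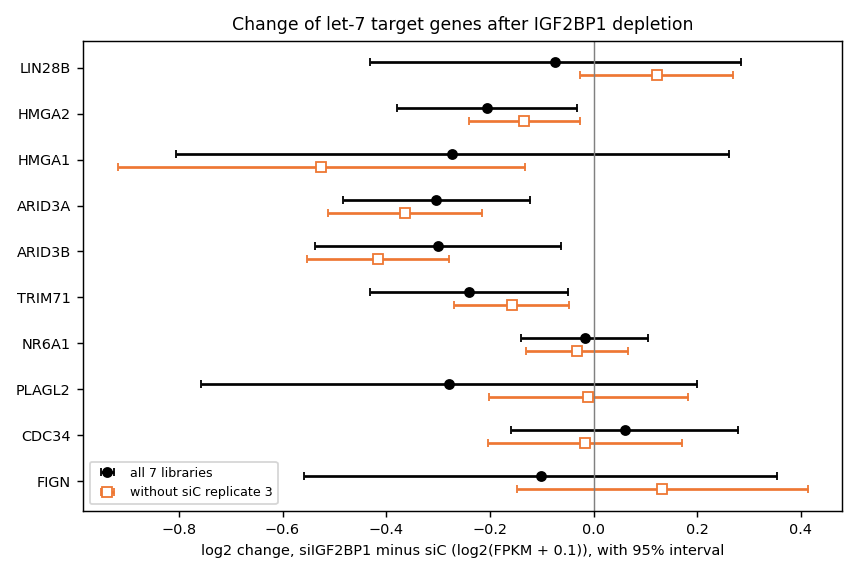
Log2 change (siIGF2BP1 minus siC, on log2(FPKM + 0.1)) of each target with its 95% interval, with all libraries and without siC replicate 3. The interval lies below 0 for HMGA2, ARID3A, ARID3B and TRIM71 in both, and LIN28B, FIGN and CDC34 change sign.

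By level in siC, HMGA1, TRIM71 and LIN28B led, with means of 90.3, 77.8 and 64.5 FPKM. CDC34 and ARID3A followed (42.4 and 40.8), then NR6A1 and HMGA2 (22.8 and 22.0), PLAGL2 and ARID3B (13.3 and 10.5) and FIGN (5.07). The siC values overlap within each of these sets, whereas neighbours in different sets do not overlap. The order depends on the length used, since with canonical transcript lengths HMGA2 had a siC mean of 82.2 FPKM and stood between HMGA1 (109) and TRIM71 (77.6), and ARID3B (15.4) stood above PLAGL2 (13.4). Their sum was 388 to 392 FPKM in siC and 328 to 353 FPKM in siIGF2BP1, lower in each siIGF2BP1 library. The sum was steady in siC although siC replicate 3 was high for some genes and low for others.

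In that library, 5 targets (LIN28B, TRIM71, HMGA2, PLAGL2 and FIGN) were above all 6 other libraries, where 28.5% of all genes were. The other 5 were below both remaining siC libraries, and 1 of them, CDC34, was below all 6 other libraries (31.1% of all genes). Relative to the mean of siC replicates 1 and 2, the difference ran from 0.81 for PLAGL2 to -0.76 for HMGA1. It was positive for targets with a GC content of 51.2% or less and negative for those of 50.3% or more, with NR6A1 and PLAGL2 crossing, and its Pearson correlation with GC content was -0.787 across the 10 targets, which share the same libraries. Across 10653 genes, GC content was rank-correlated with the level of each library relative to the others of its group. The correlation was -0.559 in siC replicate 3, and 0.580 and 0.439 in the other siC libraries. In siIGF2BP1 replicates 1 to 4 it was 0.015, -0.491, 0.386 and 0.295. Replicate 2 of siIGF2BP1 thus resembled siC replicate 3 (correlation of their deviations 0.623), and the fit without siC replicate 3 keeps it. In that fit ARID3A and ARID3B (GC content 59.0% and 57.3%) were called. HMGA1 (61.6%, log2 change -0.53) and CDC34 (65.1%, log2 change -0.02) were not. The part of GC content in the changes was not tested beyond a fit with the GC trend removed, in which ARID3B passed the threshold (limma adjusted p = 0.00980) and the other 9 did not.

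**Figure D4:**
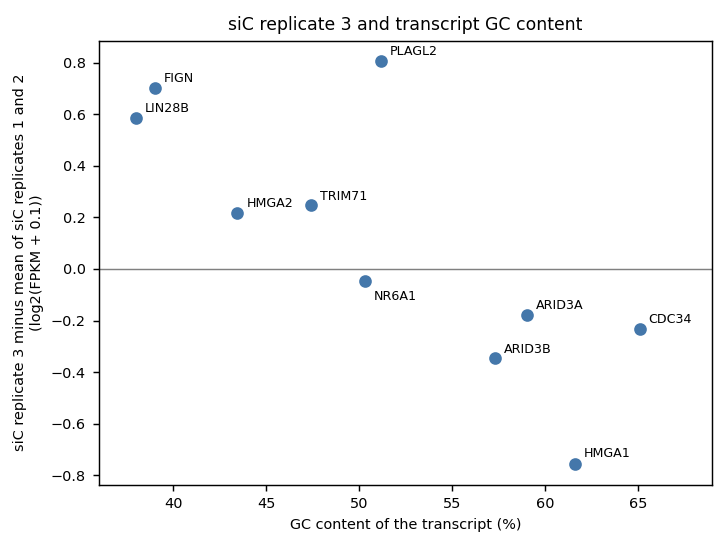
Difference of siC replicate 3 from the mean of siC replicates 1 and 2 (log2(FPKM + 0.1)) against the GC content of the canonical transcript in percent, 1 point per target. LIN28B, FIGN and PLAGL2 lie highest and HMGA1 lowest.

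Pairs of targets differed in how they varied over the libraries. The Pearson correlation over the 7 libraries was 0.980 for LIN28B and FIGN, 0.951 for ARID3A and ARID3B and 0.942 for HMGA2 and TRIM71, and -0.814 for CDC34 and FIGN and -0.751 for LIN28B and HMGA1. The protein-coding genes most like the 4 targets with an unadjusted p under 0.05, out of 10672, were TRIM44, GINS4 and PATZ1 for ARID3A (0.992 to 0.995), and ERBB2, IFI35 and CARD6 for ARID3B (0.995 to 0.998). They were HIST1H3E, ZBTB14 and OXA1L for HMGA2 (0.989 to 0.991), and XPR1, CREB3L2 and DIP2B for TRIM71 (each 0.998). These points share libraries and the same siC replicate 3, and are given as a description.

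Of 33 further genes known as let-7 targets, 31 were tested, and 1 was called lower and 1 higher, against the 2.28% and 1.65% of all genes given above. At an unadjusted p under 0.05 in limma, 7 of the 31 were lower and 3 higher, against 14.8% and 11% of all genes. The median log2 change of the 31 was -0.08, and -0.04 without siC replicate 3, against -0.017 and -0.031 over all genes. The growth factor receptor IGF1R fell from 4.63, 4.22 and 5.27 FPKM in siC to 2.43, 2.61, 2.69 and 2.51 FPKM (log2 change -0.85, limma adjusted p = 0.00288). When 1 library was left out its log2 change ran from -0.92 to -0.76. The adjusted p passed the threshold in 1 of these 7 fits, without siC replicate 3, and ran from 0.0101 to 0.0165 in the other 6 (limma). The matrix protein gene THBS1 rose from 20.7, 19.8 and 21.4 FPKM to 38.1, 39.1, 37.9 and 35.8 FPKM (log2 change 0.86, limma adjusted p = 0.000536), and its 3'UTR holds 0 seed matches. In both genes the groups did not overlap.

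Genes that make or use let-7 gave 0 calls among 15 tested in limma and in voom. At an unadjusted p under 0.05, 2 of them were lower and 1 was higher, against 14.8% and 11% of all genes. The list includes the processing enzymes, the uridyl transferases that act with LIN28, and the Argonaute and TNRC6 proteins. The lowest value was that of AGO2 (log2 change -0.43, limma adjusted p = 0.139), which was -0.22 without siC replicate 3, and the highest value that of TNRC6A (0.24, limma adjusted p = 0.0667). When siC replicate 3 was left out, AGO1 was lowest (-0.27, called lower) and AGO3 highest (0.33), so these places depend on that library. Of the host genes of let-7 hairpins, 6 of 7 were found and 3 tested, with 0 calls in limma or voom, and 0 at an unadjusted p under 0.05. HUWE1 was lowest (-0.15, limma adjusted p = 0.422) and WDR82 highest (-0.04). HUWE1 without siC replicate 3 was at -0.27 and called lower (limma adjusted p = 0.00294), WDR82 was at -0.07 and MIR99AHG was highest (0.0087). Among the paralogues of the targets, 10 of 12 were tested, with 0 calls in limma or voom, and 1 was lower at an unadjusted p under 0.05. TRIM2 had the lowest log2 change (-0.37, limma adjusted p = 0.0507) and TRIM3 the highest (0.27, limma adjusted p = 0.423). With siC replicate 3 left out they were at -0.26 and 0.12, and FIGNL2 (-0.32) was lowest and NR2C1 (0.12) highest. FIGNL2, NR2C1, AGO3 and AGO1 are named after their values were seen.

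**Figure D5:**
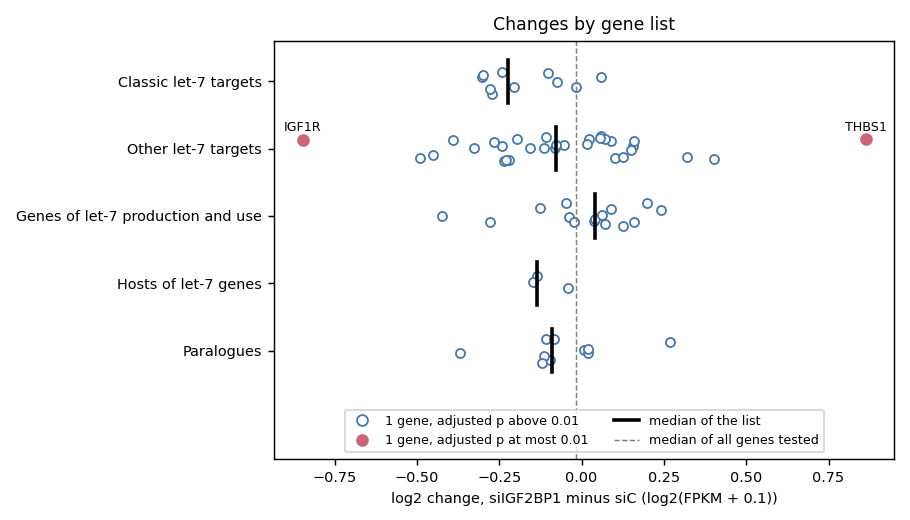
Log2 change (siIGF2BP1 minus siC, log2(FPKM + 0.1)) of each tested gene in 5 lists, with the list median as a bar and the median of all genes (-0.017) as a dashed line. Filled points passed an adjusted p of 0.01, namely IGF1R and THBS1, and the median of the 10 classic targets is -0.22.

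Over the whole table, the median log2 change was -0.03 for 9426 genes with no seed match, -0.05 for 1040 with 1 match and -0.11 for 151 with 2 or more, of which the median GC content was lower (47.6%, 46.2% and 43.96%). Without siC replicate 3 these medians were -0.05, -0.06 and -0.05. For the 27 genes with 3 or more matches, which hold 5 of the 10 targets and the depleted gene IGF2BP1 itself, it was -0.17, and -0.13 without that library. The median 3'UTR length rose over these classes, from 1188.5 bases with no match to 2799.5, 5193 and 6013. For the 3864 genes with a 3'UTR of at least 2000 bases, with or without a match, the median log2 change was -0.055, and -0.018 without siC replicate 3. The part of 3'UTR length was not tested.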

How the data were processed

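Per the labels, ribosomal RNA was removed and directional libraries were sequenced on an Illumina NextSeq instrument. The submitters' processing notes name cutadapt 1.14, HISAT2 2.1.0, SAMtools 1.5, featureCounts 1.5.3, edgeR 3.18.1 and build hg38. Whether reads were counted by strand is not given in the sources used here. The deposited table holds FPKM values per gene and library, made by the authors after TMM scaling. It also holds the authors' own comparison (a log2 fold, a p-value and an FDR for each gene), which was not used.

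The 14839 genes whose mean reached 1 FPKM were tested in limma 3.58.1 (R 4.3.3) with a trend on log2(FPKM + 0.1), two-sided, without covariates. Benjamini-Hochberg adjustment was made over all genes, with a threshold of 0.01. The test was checked on simulated data that held no outlying library and no trend with GC content, so the check does not cover these. Changes (siIGF2BP1 minus siC) on the log2(FPKM + 0.1) scale are understated for low genes. Whole reads were recovered for 100% of values above 0 (tolerance 0.05) and tested with voom. Array weights were estimated gene by gene, since the default estimate did not converge. GC content came from canonical transcripts (GENCODE release 44). Groups and replicate numbers were taken from titles. All 10 targets are named, and, of the other lists, genes past the threshold and each list's largest rise and fall. For each target with an unadjusted p under 0.05, the 3 most correlated protein-coding genes are named. Members, lists and tests were chosen with earlier results of these data known.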

Additional observations from a re-analysis of the deposited data

How the results depend on the processing

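Across the alternatives, TRIM71, HMGA2, HMGA1, ARID3A, ARID3B and PLAGL2 kept a lower value in siIGF2BP1. The sign turned for NR6A1 with median centring (0.012), quantile normalization (0.036) and without siIGF2BP1 replicate 2 (0.0019), for LIN28B with array weights (0.090) and without siC replicate 3 (0.12), for FIGN in the same fits (0.062 and 0.13), for CDC34 without siC replicate 3 (-0.017) and for WDR82 with quantile normalization (0.024). When 1 library was left out, these 4 targets ran from -0.032 to 0.0019 (NR6A1), -0.18 to 0.12 (LIN28B), -0.26 to 0.13 (FIGN) and -0.017 to 0.14 (CDC34). The cause was not tested. Against 583 genes called with the settings of the report (338 lower, 245 higher, of 14839), separate fits called 352 with no filter (206 lower, 146 higher, of 34319). With the GC trend removed they called 992 (603 lower, 389 higher, of 14711), and with array weights 2744 (1722 lower, 1022 higher, of 14839). A mean of at least 5 FPKM gave 468 (299 lower, 169 higher, of 7952), and a threshold of 0.05 (a looser threshold) gave 1713. When 1 library was left out the number ran from 129 to 1523, and the 1523 were without siC replicate 3 (990 lower, 533 higher). The calls per list that follow stand beside these numbers. Classic targets called lower were 2 with array weights, 1 with the GC trend removed, 1 at 0.05, and 0 to 2 when 1 library was left out. Their median was -0.16 with quantile normalization, -0.10 with array weights, and -0.25 to -0.083 when 1 library was left out. Other let-7 targets called lower were 0 at a mean of at least 5 FPKM, which leaves out IGF1R, 4 with array weights, 2 with the GC trend removed, 4 at 0.05 and 0 to 3 when 1 library was left out. Those called higher were 3 with array weights, 2 at 0.05 and 1 to 2 when 1 library was left out. Genes of let-7 production and use gave 1 call with array weights, 1 with the GC trend removed, 1 at 0.05 and 0 to 1 when 1 library was left out. Hosts gave 1 with array weights and 0 to 1 when 1 library was left out, and paralogues 1 with array weights. The values of 2 without siC replicate 3 (ARID3A and ARID3B) and 3 (IGF1R, with NRAS and RDX, chosen after their values were seen) are the highest of these ranges. The 2 other let-7 targets called higher in that fit were THBS1 and PRTG (log2 change 0.57, limma adjusted p = 0.00116). PRTG was also chosen after its value was seen.

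With the replicate block, limma called 0 genes (2389 at an unadjusted p under 0.05), so other let-7 targets gave 0 lower and 0 higher, with IGF1R at -0.84 and THBS1 at 0.89 on the log2 scale, and IGF2BP1 was at -2.36 (limma adjusted p = 0.0909). The methods name no pairing by replicate number. Deviations of same-numbered libraries correlated at 0.072, -0.543 and -0.397, and not every library correlated best with its own number. These values cannot decide on pairing. Against each siIGF2BP1 library, siC replicates 1 and 2 gave similar correlations and siC replicate 3 the opposite sign (-0.608, -0.543 and 0.623 against siIGF2BP1 replicate 2). Deviations were taken from the mean of each group, so those of the siC libraries offset each other. With siC replicate 3 standing apart, the opposite sign is largely set by this calculation and says nothing on pairing. A fit with GC content and the block together was not run. Counting error at 542 reads is 4.3%, below the spread between libraries for FIGN.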

Other observations

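The let-7 hairpins have rows of their own in the table, and their values are not levels of mature let-7, which total RNA libraries of this kind do not measure. They held 0 to 27 reads per library, the most on MIRLET7D, which ran from 6 to 27 reads. MIRLET7A3 and MIRLET7B had 0 reads in all 7 libraries. The host transcript MIRLET7BHG had 5 to 28 reads per library, too few to be tested, at 0.152, 0.153 and 0.152 FPKM in siC and 0.0674, 0.0838, 0.0659 and 0.121 FPKM in siIGF2BP1. All 4 siIGF2BP1 values were below the siC values, and no test was made. Of the markers of other cells, CD14, which hepatocytes also make, had a mean of 0.892 FPKM in siC and 2.25 FPKM in siIGF2BP1 (limma adjusted p = 0.0338), and passed without siC replicate 3 (log2 change 0.96, limma adjusted p = 0.00984). AGO1 (limma adjusted p = 0.00565) also passed without that library, and did not with all libraries (log2 change -0.28, limma adjusted p = 0.0160).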
